A study of Homo sapiens with 8 samples.

Results

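The comparison set the arrays labelled XBP1 shRNA against the arrays labelled non-targeting (NT) shRNA, within each of 2 human multiple myeloma cell lines, RPMI-8226 and JJN3. Its members were 4 of the 8 arrays of the study, 2 in each group, and they were paired by cell line. RPMI-8226 and JJN3 are established lines grown from malignant human plasma cells, kept here in IMDM with 10% serum. Cells of the XBP1 shRNA group received a lentivirus carrying an shRNA against XBP1, and cells of the NT shRNA group a lentivirus whose shRNA has no intended target. Infection lasted 16 h in virus supernatant diluted to 30 to 50% with 8 µg/mL polybrene, and total RNA was taken from cells harvested at 96 h. The other 4 arrays held uninfected cells and cells given an shRNA against IRE1, 1 array of each per line, and they entered the fit as further treatments. The sequences of the shRNAs and their number per target are not given in the sources used here. Each line and treatment gave 1 array, so the 2 lines were the replicates (n = 2). The spread behind each SE and p-value was what remained over all 4 treatments once the line was fitted. Moderation by eBayes drew it toward the spread of all genes.

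The unfolded protein response is the program by which cells adjust the endoplasmic reticulum (ER), the compartment where secreted proteins fold. One of its sensors is IRE1, encoded by ERN1, whose RNase cuts XBP1 mRNA so that it is spliced into the form that encodes an active transcription factor. XBP1 is known to drive genes of ER translocation, chaperones, ER-associated degradation and secretory transport, and plasma cells need it to secrete antibody. The PERK sensor acts beside it: it phosphorylates eIF2α, which favours translation of ATF4, an activator of amino acid supply genes and of CHOP, encoded by DDIT3. ATF6 is the remaining sensor.

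The deposited values were centred on the median of each probe set over the 8 arrays, so they show differences between arrays and no expression level. The RPMI-8226 array labelled NT shRNA differed from the uninfected RPMI-8226 array by at least 2-fold in 270 of 19775 genes (1.37%), while the JJN3 array labelled NT shRNA differed from its uninfected array in 23 genes (0.116%). The XBP1 shRNA arrays differed from the uninfected ones in 845 genes in RPMI-8226 and 722 in JJN3. The median of the poly-A spike-in probe sets differed by 0.17 (log2) between the XBP1 and NT shRNA arrays of RPMI-8226, higher on the former, and by 0.19 in JJN3. The part of these shifts in the results was not tested. Because the RNA came from bulk cultures, fewer cells of a kind and less RNA per cell cannot be told apart.

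The targeted genes were read first. On the centred log2 scale, the XBP1 probe set read 0.02 on the NT shRNA array and -0.58 on the XBP1 shRNA array of RPMI-8226, and 1.11 and -0.02 on those of JJN3. By this probe set XBP1 mRNA was at 65.9% of the NT shRNA level in RPMI-8226 and at 45.6% in JJN3, taking the log base as 2. The other XBP1 probe set differed by -0.20 in RPMI-8226 and 0.03 in JJN3, a mean of -0.08. The mean difference of -0.87 ± 0.38 (SE, n = 2 lines) did not pass the threshold of 0.05 (limma, adjusted p = 0.314). ERN1, which encodes IRE1, read 1.73 and 0.29 on the NT shRNA and XBP1 shRNA arrays of RPMI-8226, and -0.35 and -1.57 on those of JJN3. Its mean difference was -1.33 ± 0.33 (SE, n = 2; adjusted p = 0.0771), and a second ERN1 probe set differed by -1.36 in RPMI-8226 and -1.38 in JJN3, while the remaining ERN1 probe set differed by a mean of -0.07. By these probe sets ERN1 differed by more than XBP1 on the arrays labelled XBP1 shRNA, although neither passed the test. On the array labelled IRE1 shRNA, ERN1 differed from NT shRNA by 0.38 in RPMI-8226 and -0.89 in JJN3, and XBP1 by -0.63 and -2.58. These values do not match the labels in a simple way, so the arrays are called by their labels throughout. Against the uninfected arrays, ERN1 differed by -1.88 (adjusted p = 0.0226) and XBP1 by -0.91 (adjusted p = 0.263).

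**Figure D1:**
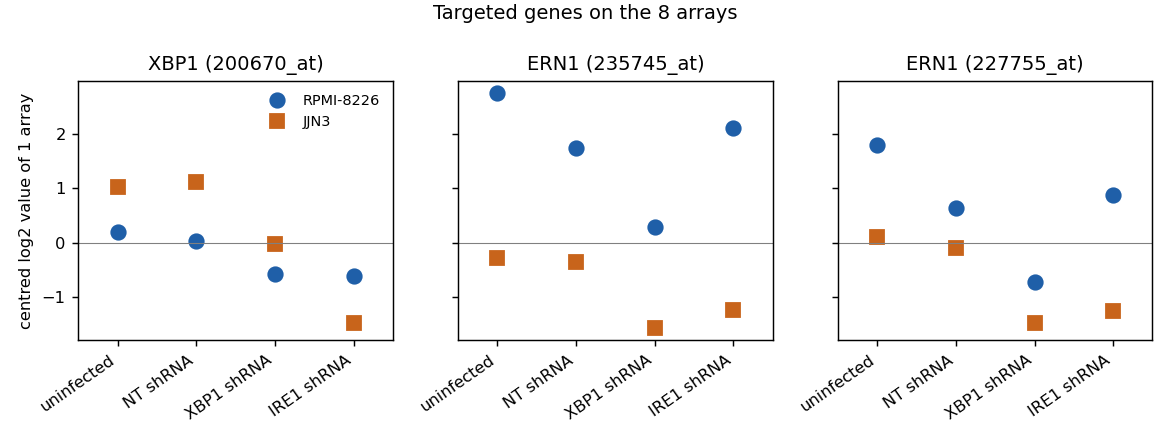
Centred log2 values (vertical axis) of 1 XBP1 and 2 ERN1 probe sets on each of the 8 arrays (horizontal axis: treatment), with circles for RPMI-8226 and squares for JJN3 and 1 array per point. On the arrays labelled XBP1 shRNA, the XBP1 and ERN1 values lie below those of NT shRNA in both lines, at -0.58 against 0.02 for XBP1 in RPMI-8226.

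Of 19775 genes tested, 436 (2.20%) passed an adjusted p of 0.05 in limma, of which 190 rose (0.961%) and 246 fell (1.24%) on the XBP1 shRNA arrays. The called genes were large differences: the median size was 1.02 on the log2 scale, with 5% of called genes below 0.752 and 5% above 1.65. Both the threshold and the use of each gene's probe set of highest SD favour large sizes. A gene's difference in JJN3 departed from that in RPMI-8226 by a median of 0.264 among called genes. The test favours genes whose lines agree, so this gap lends the calls no support. Counted without a test, 102 genes (0.516%) were lower by 2-fold or more in both lines and 52 (0.263%) higher, and 140 of these 154 were among the 436. In RPMI-8226 by itself 186 genes were at least 2-fold higher (0.941%) and 392 lower (1.98%). In JJN3 305 were higher (1.54%) and 321 lower (1.62%). Only 3 genes (0.0152%) differed at least 2-fold in opposite directions in the 2 lines. Without the RPMI-8226 NT shRNA array no gene passed (0 by limma, 2307 at an unadjusted p under 0.05), and without the JJN3 NT shRNA array 36 did. Without the XBP1 shRNA array of RPMI-8226 224 genes passed (126 rose, 98 fell), and the other arrays, left out in turn, gave 192 to 350. When the cell line was left out of the fit, no gene passed (0 by limma, 381 at an unadjusted p under 0.05). With the uninfected arrays as the control 686 genes passed, 293 of them among the 436. All 65 genes past the threshold that the naming rule gave kept their direction when any 1 array was left out. These genes differed the same way in both lines, so this was largely fixed in advance and lends them no support. The size moved by over 1.5 times in 3 of the 65, RAC1, H2AC17 and CDH1. MANF, FKBP14, SSR2, ATF6B, BET1, SEC23A, SLC43A1, ELOVL5, BAD, PSMD11, RAC2 and CDC25B passed in 0 of the 8 fits with 1 array left out. DNAJB9 passed in 5 of these fits and MPI in 7.

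**Figure D2:**
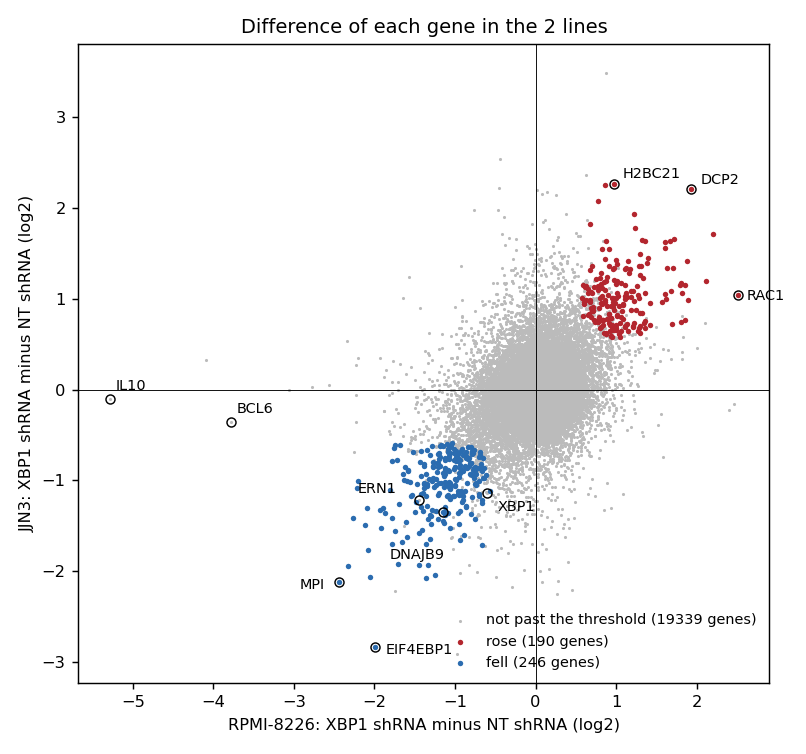
Difference between the XBP1 shRNA and NT shRNA arrays (log2) for each of 19775 genes in RPMI-8226 (horizontal axis) and JJN3 (vertical axis), with the 190 genes that rose in red, the 246 that fell in blue and the rest in grey. The called genes lie in the corners where both lines differ the same way, and IL10 and BCL6 lie far out along the RPMI-8226 axis alone.

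Among genes backed by more than 1 called probe set, the 12 with the largest falls differed by -1.34 to -1.72 on the log2 scale. RWDD2B, a protein with an RWD domain, read 0.45 on the NT shRNA and -1.20 on the XBP1 shRNA array of RPMI-8226, and -0.05 and -1.74 on those of JJN3. It fell by 1.67 ± 0.16 (SE, n = 2, adjusted p = 0.00539), by nearly the same amount in both lines. HADHA, the alpha subunit of the mitochondrial trifunctional protein of fatty acid oxidation, read -0.11 and -1.45 in RPMI-8226 and 0.95 and -0.98 in JJN3. All 3 of its probe sets fell, the gene by 1.63 ± 0.18 (adjusted p = 0.00736). CDK6, a cyclin D-dependent kinase of the G1 phase, read -0.47 and -2.06 in RPMI-8226 and 1.63 and 0.01 in JJN3. It fell by 1.61 ± 0.26 (adjusted p = 0.0221), with 4 of 7 probe sets called. The level of CDK6 also differed between the lines, so that JJN3 under XBP1 shRNA still read above RPMI-8226 under NT shRNA. GALNT1, which starts O-linked glycosylation, fell with 4 of 5 probe sets called, by 1.87 in RPMI-8226 and 1.36 in JJN3. The small GTPase RHOQ fell with 4 of 6 probe sets called, by 1.70 in RPMI-8226 and 1.26 in JJN3. GLMP (-1.60) and DNASE2 (-1.51), both lysosomal proteins, HIPK2 (-1.53), a nuclear kinase, RGS16 (-1.45), a brake on G protein signals, USP14 (-1.36), a deubiquitinase of the proteasome, PALLD (-1.34), an actin scaffold, and the antisense RNA TMEM132D-AS1 (-1.72) made up the rest. Of the 2 other RGS16 probe sets 1 differed by 0.20, against this direction. All 12 also passed the threshold against the uninfected arrays, a comparison that shares the XBP1 shRNA arrays with this one.

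The 12 largest rises were 1.42 to 1.78 on the log2 scale, and they did not all hold against uninfected cells. PLEKHA3, a Golgi lipid-binding protein, read -0.44 on the NT shRNA and 1.17 on the XBP1 shRNA array of RPMI-8226, and -0.17 and 1.46 on those of JJN3. It rose by 1.62 ± 0.15 (SE, n = 2; adjusted p = 0.00399), by 1.61 in RPMI-8226 and 1.63 in JJN3. ATP1B1, the beta subunit of the sodium pump, read 0.98 and 2.59 in RPMI-8226 and -0.21 and 1.36 in JJN3, a rise of 1.59 ± 0.17 (adjusted p = 0.00736). TPM1, an actin-binding tropomyosin, rose by 1.42 ± 0.15 (adjusted p = 0.00702), and STXBP4, a syntaxin-binding protein, by 1.66 ± 0.27 (adjusted p = 0.0225). EIF4E2 (1.51), a cap-binding repressor of translation, DYNC2LI1, a dynein chain of cilia, and PHF20L1 (1.48), a reader of methyl-lysine, also rose. Of the 6 other PHF20L1 probe sets 3 went the other way, the largest by -0.46. These 7 rises passed against uninfected cells as well. The remaining 5 did not: NTAN1 (1.49), MRPL43 (1.45), ALYREF (1.44), RAC1 (1.78) and STAU1 (1.52). RAC1, a small GTPase of the actin cytoskeleton, read 0.06, -2.47, 0.05 and -0.05 on the uninfected, NT, XBP1 and IRE1 shRNA arrays of RPMI-8226, and -0.08, -0.99, 0.06 and 0.29 on those of JJN3. Only the NT shRNA arrays were low, and the difference from uninfected cells was 0.06 (adjusted p = 0.966). Without the RPMI-8226 NT shRNA array the RAC1 difference from NT shRNA was 1.08. STAU1, which binds double-stranded RNA, read 0.19, -1.49, 0.22 and -1.20 on the RPMI-8226 arrays in that order, and 0.80, -0.19, 1.15 and -1.29 on the JJN3 arrays. It was low on both the NT and the IRE1 shRNA arrays, and differed from uninfected cells by 0.19 (adjusted p = 0.831).

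**Figure D3:**
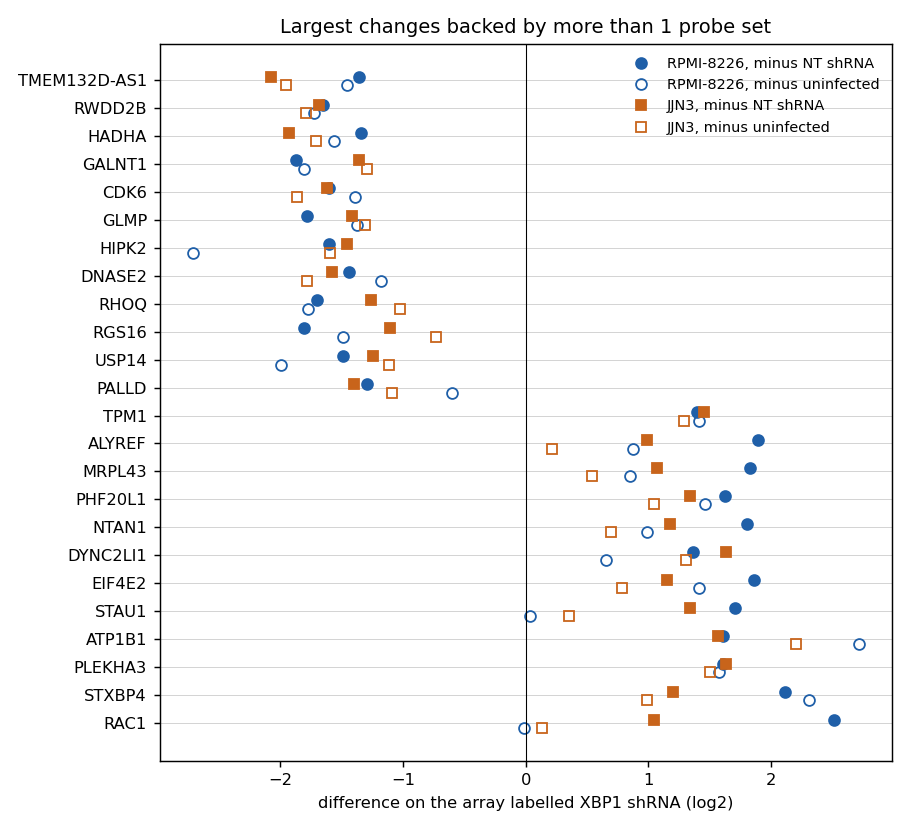
Log2 differences (horizontal axis) of the array labelled XBP1 shRNA from NT shRNA (filled) and from uninfected cells (open) for the 12 largest falls and 12 largest rises, with circles for RPMI-8226 and squares for JJN3. Filled and open points of the 12 falls all lie below 0, while the mean difference from uninfected cells is 0.06 for RAC1 and 0.19 for STAU1.

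The genes given in the following paragraphs stand on 36 gene lists that cover the pathways XBP1 acts in and the cell types a culture could hold. Of the 1008 distinct listed genes measured, 45 were called (4.46%), of which 29 fell (2.88%) and 16 rose (1.59%). The shares over all genes tested were 2.20%, 1.24% and 0.961%, and the median difference of all genes was 0.00. The lists were chosen with earlier results of these data known, so the higher shares among listed genes lend the lists no support.

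Of the ER and secretory genes a few members fell and most did not pass. Among 15 sensors and transducers of the unfolded protein response 1 fell, ATF6B, a relative of ATF6. It read -0.27 and -1.08 on the NT and XBP1 shRNA arrays of RPMI-8226 and -0.05 and -0.86 on those of JJN3. The difference was -0.81 ± 0.15 (SE, n = 2, adjusted p = 0.0322), while the 2 other ATF6B probe sets differed by means of -0.18 and -0.21. Among 36 ER chaperones and disulfide enzymes 3 fell and 0 rose, and the list median was -0.18. DNAJB9, an ER co-chaperone and a textbook XBP1 target, read 0.61 and -0.53 in RPMI-8226 and 0.28 and -1.07 in JJN3. It fell by 1.25 ± 0.19 (adjusted p = 0.0213), with 2 of 3 probe sets called. MANF, a secreted ER stress protein, fell by 0.83 ± 0.16 (adjusted p = 0.0365) and FKBP14, an ER prolyl isomerase, by 0.78 ± 0.16 (adjusted p = 0.0479). MANF, FKBP14 and ATF6B passed in 0 of the 8 fits with 1 array left out, and DNAJB9 in 5. HSPA5, the main ER chaperone BiP, differed by -0.18 ± 0.17 (adjusted p = 0.691) and HYOU1, its nucleotide exchange factor, by 0.03 ± 0.17 (adjusted p = 0.967), both named here after their values were seen. Of the 36, 21 were lower in both lines, and 29.1% of all genes were.

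The translocation machinery of the ER gave 1 called gene of 36, SSR2, which belongs to the TRAP complex at the translocon. It read 0.35 and -0.54 in RPMI-8226 and 0.71 and -0.01 in JJN3, a fall of 0.81 ± 0.16 (adjusted p = 0.0402), and the list median was -0.07. Of 29 genes of ER-associated degradation 0 were called, and the median was -0.18. Its 2 largest differences were those of HERPUD1, a membrane protein of the degradation complex, at -0.88 (adjusted p = 0.0939) and ERLIN1, at -0.78 (adjusted p = 0.115). Of 38 N-glycosylation genes 1 fell, MPI, which makes mannose 6-phosphate, and the median was -0.16. MPI read 0.08 and -2.36 in RPMI-8226 and 1.35 and -0.76 in JJN3, a fall of 2.28 ± 0.21 (adjusted p = 0.00399), while its other probe set differed by -0.32. Of 52 ER-Golgi transport genes 2 fell, ARF4, a small GTPase of vesicle budding (-1.14 ± 0.17, adjusted p = 0.0183), and BET1, a SNARE (-0.89 ± 0.17, adjusted p = 0.0402). SEC23A, a subunit of the COPII coat, rose by 0.81 ± 0.17 (adjusted p = 0.0461), and the median was -0.07. Of 13 reported targets of IRE1 RNase decay 1 fell, CYB5R3, a reductase (-1.27 ± 0.15, adjusted p = 0.00921), and the median was 0.00.

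PERK and ATF4 act beside IRE1, and their effectors were read next. Among 29 stress effectors of PERK, ATF4 and CHOP, 3 fell and 0 rose, with a median of -0.46 (RPMI-8226 -0.33, JJN3 -0.58), and 20 of 29 were lower in both lines. EIF4EBP1, which binds eIF4E and holds back cap-dependent translation, read 0.30 on the NT shRNA and -1.69 on the XBP1 shRNA array of RPMI-8226, and 0.54 and -2.29 on those of JJN3. Its fall of 2.41 ± 0.31 (SE, n = 2; adjusted p = 0.0113) was the largest on the list. DDIT3, the transcription factor CHOP, read 0.49 and -0.76 in RPMI-8226 and 0.87 and -0.21 in JJN3. It fell by 1.17 ± 0.24 (adjusted p = 0.0471), but against uninfected cells the difference was -0.91 (adjusted p = 0.0822). XPOT, which exports tRNA from the nucleus, read 0.21 and -0.70 in RPMI-8226 and -0.05 and -1.29 in JJN3, a fall of 1.07 ± 0.21 (adjusted p = 0.0388). Other members, picked here after their values were seen, were lower in both lines without passing. SESN2, a stress inhibitor of mTORC1, had an adjusted p of 0.151, with -1.02 in RPMI-8226 and -1.76 in JJN3. CHAC1, which degrades glutathione, differed by -0.83 and -1.62 (adjusted p = 0.265). ATF4 itself had an adjusted p of 0.56, with -0.22 in RPMI-8226 and -0.78 in JJN3.

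Of the genes of amino acid supply few were called. Of 18 amino acid transporters 2 fell, 0 rose and 13 were lower in both lines, with a median of -0.54. SLC1A4, a carrier of alanine, serine and cysteine, read 0.37 and -0.75 in RPMI-8226 and -0.12 and -1.41 in JJN3. It fell by 1.21 ± 0.19 (adjusted p = 0.0221) with 3 of 5 probe sets called. SLC43A1, a carrier of large neutral amino acids, fell by 0.98 ± 0.19 (adjusted p = 0.0402). Of 24 enzymes of serine, asparagine and one-carbon metabolism 1 fell, 0 rose and 11 were lower in both lines, with a median of -0.54, but the lines were unlike: the median was -0.19 in RPMI-8226 and -0.81 in JJN3. BCAT1, the cytosolic branched-chain aminotransferase, read -0.58 and -1.86 in RPMI-8226 and 1.30 and -0.02 in JJN3, a fall of 1.30 ± 0.15 (adjusted p = 0.00801). ASNS, the asparagine synthetase, named after its values were seen, differed by -0.20 in RPMI-8226 and -1.28 in JJN3. Of 18 aminoacyl-tRNA synthetase genes 1 fell and 13 were lower in both lines, with a median of -0.25 (RPMI-8226 -0.08, JJN3 -0.48). EPRS1, which charges glutamyl- and prolyl-tRNA, read -0.23 and -1.31 in RPMI-8226 and 1.27 and 0.11 in JJN3, a fall of 1.12 ± 0.19 (adjusted p = 0.0273). SARS1, the seryl-tRNA synthetase, differed by -1.56 with an adjusted p of 0.0524, and is named after its value was seen. The 4 lists share genes, among them CTH, SLC7A11 and NARS1.

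**Figure D4:**
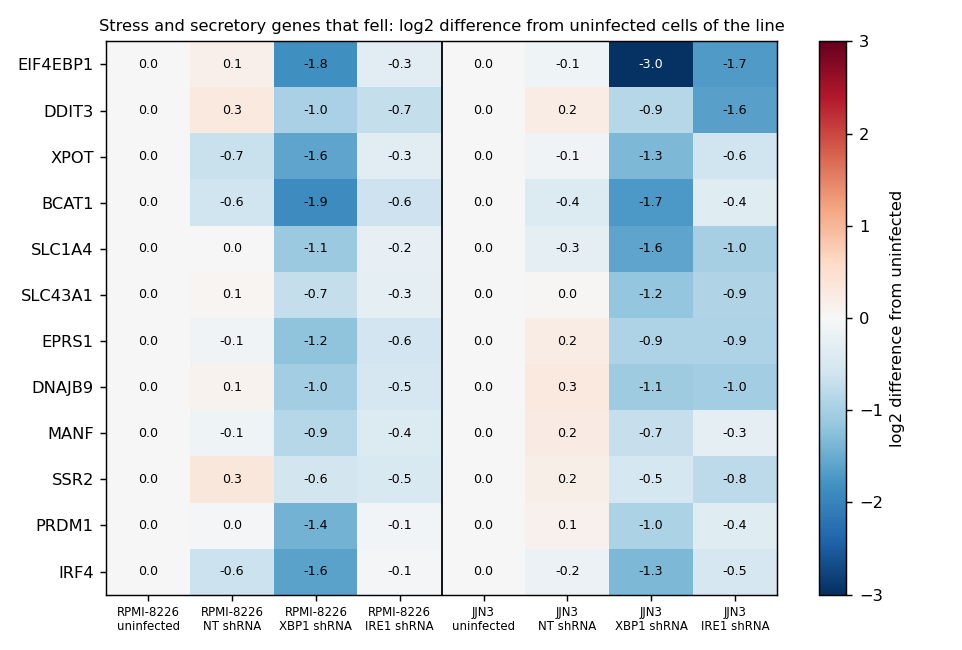
Log2 difference (colour) of each infected array from the uninfected array of its line for stress and secretory genes that fell, with genes in rows and arrays in columns, and uninfected arrays at 0. The XBP1 shRNA columns are darker blue than the NT shRNA columns in both lines, as for EIF4EBP1 in RPMI-8226 at -1.84 against 0.15. The genes were picked because they fell against NT shRNA, so this contrast was fixed in advance. The IRE1 shRNA arrays were also below NT shRNA for some genes (DDIT3 in JJN3, by -1.85) and above it for others (XPOT in RPMI-8226, by 0.36).

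Promoter sequences were read for the genes that changed and for the ER and ATF4-linked lists, because XBP1 and ATF4 are known to bind short DNA elements. RefSeq gave windows of 300 bases, 250 before to 50 after a start of the gene (GRCh38.p14), for 201 of the 246 genes that fell and 159 of the 190 that rose. Some genes had several windows, and a gene was counted if any of them held the motif. The letters searched on both strands were CCAAT and CCACG parted by 9 bases for the ER stress element, ATTGG and CCACG parted by 1 base for its second form, TGACGTGG for the core of the unfolded protein response element and TGATGCAA for the amino acid response element. The last stood in the windows of 7 of the 201 genes that fell (3.48%) and 0 of the 159 that rose, beside 0.936% of 15384 tested genes with a window and 1.08% of all 27305 genes. The 7 were IL21R, R3HDM1, BCAT1, SLC1A4, ANK2, ZBTB38 and FUT1. The windows of FUT1 and FGF21 overlap on opposite strands, and the FUT1 match is the same site as the FGF21 match. FGF21 differed by 0.10 (limma, adjusted p = 0.835). In the 4 ATF4-linked lists, whose members include known carriers of the amino acid element, 15 of 73 genes had it (20.5%). The unfolded protein response core stood in 2 of the 201 genes that fell (0.995%), LTF and IDH3G, and in 3 of the 159 that rose (1.89%), SEC23A, HAGH and XIAP, beside 1.17% of tested genes. The IDH3G match is the same site as the match in the overlapping window of SSR4, which differed by 0.002. Neither form of the ER stress element was found in the genes that rose or fell, and they stood in 0.117% and 0.124% of tested genes. In the 5 ER and secretory lists 8 of 163 genes held the first form (4.91%), 3 the second (1.84%) and 19 the core (11.7%). Among the 8, ALG12 and CRELD2 share a single site in their overlapping windows. The core can share its letters CGTGG with the second form of the ER stress element, and matches to both overlapped in the HYOU1 window. A match describes letters and is no proof of a bound site.

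The 4 windows shown are those of XBP1 itself, which carries an ER stress element, of HERPUD1, which carries the second form of it and the amino acid element, and of BCAT1 and SLC1A4, which fell and carry the amino acid element. Each is given 5′ to 3′ on the gene's strand with the motifs in capitals. The XBP1 window is 22:28800570-28800819 on the minus strand, with the first base of the element 52 bases before the start. The HERPUD1 window is 16:56931892-56932141 on the plus strand. The BCAT1 window is 12:24949102-24949351 on the minus strand, with the first base of the element 48 bases before the start, and the SLC1A4 window is 2:64989149-64989399 on the plus strand, with the first base of the element 7 bases before the start.
XBP1: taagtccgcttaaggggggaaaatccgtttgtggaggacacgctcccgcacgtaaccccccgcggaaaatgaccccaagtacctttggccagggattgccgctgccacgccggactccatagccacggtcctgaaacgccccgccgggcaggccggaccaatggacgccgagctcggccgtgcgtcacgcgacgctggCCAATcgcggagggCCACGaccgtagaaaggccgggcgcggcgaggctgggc
HERPUD1: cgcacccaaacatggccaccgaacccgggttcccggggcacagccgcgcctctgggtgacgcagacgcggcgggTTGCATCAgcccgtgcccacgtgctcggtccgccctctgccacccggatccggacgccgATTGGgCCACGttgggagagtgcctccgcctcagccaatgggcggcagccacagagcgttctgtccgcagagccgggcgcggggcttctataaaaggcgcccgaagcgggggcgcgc
BCAT1: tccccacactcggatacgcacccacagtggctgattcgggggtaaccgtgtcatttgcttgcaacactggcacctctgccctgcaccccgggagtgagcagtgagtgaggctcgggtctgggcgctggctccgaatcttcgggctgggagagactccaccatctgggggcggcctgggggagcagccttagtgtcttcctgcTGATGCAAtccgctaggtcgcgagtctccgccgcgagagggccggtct
SLC1A4: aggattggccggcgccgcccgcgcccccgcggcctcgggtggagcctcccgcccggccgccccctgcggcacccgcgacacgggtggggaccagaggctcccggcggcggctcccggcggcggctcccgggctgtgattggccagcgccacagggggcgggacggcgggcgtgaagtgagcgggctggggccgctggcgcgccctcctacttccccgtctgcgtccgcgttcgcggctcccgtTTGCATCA
The genes behind these windows differed by -0.87 (XBP1), -0.88 (HERPUD1), -1.30 (BCAT1) and -1.21 (SLC1A4), of which BCAT1 and SLC1A4 passed the test.

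Genes that act on mRNA changed in both directions. Of 33 translation initiation genes 3 fell and 1 rose, with a median of -0.06. Beside EIF4EBP1, the falls were those of EIF2S3, the gamma subunit of eIF2 (-1.24 ± 0.21, SE, n = 2; adjusted p = 0.0256), and EIF4G1, the scaffold of the cap-binding complex (-1.04 ± 0.18, adjusted p = 0.0295). EIF4E2 rose. Of 48 genes of mRNA decapping and decay 1 rose and 1 fell, with a median of -0.04. DCP2, the decapping enzyme, read -0.59 and 1.35 in RPMI-8226 and -1.31 and 0.90 in JJN3, a rise of 2.07 ± 0.17 (adjusted p = 0.00345). Of the 3 other DCP2 probe sets 1 differed by -0.63, against this rise. ZFP36L2, which marks AU-rich mRNA for decay, fell by 1.01 ± 0.19 (adjusted p = 0.0370).

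Plasma cell identity genes fell for 3 of 27 measured members and 0 rose, with a median of -0.37. PRDM1, the repressor BLIMP1 that sets the plasma cell program, read -0.35 and -1.74 on the NT and XBP1 shRNA arrays of RPMI-8226 and 1.39 and 0.31 on those of JJN3. It fell by 1.23 ± 0.19 (SE, n = 2; adjusted p = 0.0219). IRF4, on which myeloma cells depend, read -0.78 and -1.74 in RPMI-8226 and 1.30 and 0.14 in JJN3, a fall of 1.06 ± 0.21 (adjusted p = 0.0436). CD28, a costimulatory receptor that plasma cells can carry, fell by 0.85 ± 0.16 (adjusted p = 0.0343), but differed by -0.41 from uninfected cells (adjusted p = 0.213). SDC1, the plasma cell marker CD138 (named after its value was seen), was not called and differed by 0.76 in RPMI-8226 and -0.08 in JJN3. Of 11 immunoglobulin genes 0 were called, the 2 largest differences being those of IGLC1 (0.53) and IGKC (-0.48), and the median was -0.01. Of 20 B cell genes 0 were called, with a median of -0.04, and MS4A1, the B cell antigen CD20, differed by 0.40. Of 16 MHC class II genes 0 were called, with a median of -0.18 and HLA-DMA at -0.77 and HLA-DQB1 at -0.64.

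BCL6, the germinal centre repressor, was the other largest member of the B cell list, at -2.07 ± 0.74 (adjusted p = 0.209). In RPMI-8226 BCL6 read -3.85, -0.15, -3.93 and -3.92 on the uninfected, NT, XBP1 and IRE1 shRNA arrays. In JJN3 the NT and XBP1 shRNA arrays differed by -0.36. IL10, an anti-inflammatory cytokine and the largest difference on the NF-kB list (-2.69, adjusted p = 0.203), read 2.13, 5.45, 0.17 and 0.67 on the RPMI-8226 arrays in that order, and differed by -0.10 in JJN3. SPP1, the secreted protein osteopontin, named after its values were seen, read -0.81, 2.87, -1.23 and -0.51 in RPMI-8226 and differed by 0.33 in JJN3. In RPMI-8226 these 3 genes were highest on the NT shRNA array, and none was called.

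Of 38 histone genes 5 rose and 0 fell, with a median of 0.28, and 20 were higher in both lines, beside 28.7% of all genes. H2BC21 read -1.27 and -0.30 in RPMI-8226 and 0.30 and 2.57 in JJN3, a rise of 1.62 ± 0.26 (SE, n = 2; adjusted p = 0.0230). H2AC8 rose by 1.56 ± 0.29, H2AC17 by 1.43 ± 0.27 and H2BC11 by 0.99 ± 0.20, with larger differences in JJN3 in each case. Without the RPMI-8226 NT shRNA array the H2AC17 difference was 1.92, and without the JJN3 NT shRNA array 0.93. Histone genes of a cluster are near-identical copies, so their probe sets may share transcripts and the members are not independent. Of 54 genes of G2, mitosis and the spindle 1 rose, UBE2S, an E2 of the anaphase-promoting complex (0.96 ± 0.18, adjusted p = 0.0370), and 1 fell, CDC25B, a phosphatase that activates CDK1 (-0.84 ± 0.17, adjusted p = 0.0419). The median of that list was 0.31 (RPMI-8226 0.54, JJN3 0.09), and 32 of 54 were higher in both lines. Of 44 genes of DNA replication and S phase 0 were called, with a median of -0.10, and the 2 largest differences were those of MCM6, a helicase subunit, at -1.14 (adjusted p = 0.0557) and CCNE2 at -0.80.

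Of 32 MYC and ribosome biogenesis genes 1 rose, TFRC, the transferrin receptor (1.06 ± 0.19, SE, n = 2; adjusted p = 0.0305), with a list median of -0.19. Of 27 BCL2 family and caspase genes 2 rose, XIAP, a caspase inhibitor (1.18 ± 0.21, adjusted p = 0.0306), and BAD, a pro-apoptotic BH3 protein (0.74 ± 0.15, adjusted p = 0.0419), with a median of -0.11. Of the 6 other XIAP probe sets 5 went the other way, the largest by -0.23. Of 23 p53 targets 1 rose, ZMAT3, an RNA-binding p53 target (1.28 ± 0.20, adjusted p = 0.0221), with a median of 0.06. Of 42 proteasome genes 2 rose, PSMB2 (0.85 ± 0.18, adjusted p = 0.0482) and PSMD11 (0.77 ± 0.16, adjusted p = 0.0482), subunits of the core and the lid, with a median of 0.10. Of 40 autophagy genes 2 fell, ATG3, which conjugates LC3 to lipid (-1.25 ± 0.15, adjusted p = 0.0107), and GABARAPL2, an LC3 relative (-0.88 ± 0.16, adjusted p = 0.0328), with a median of -0.08. Of 30 sterol and fatty acid synthesis genes 1 fell, ELOVL5, a fatty acid elongase (-0.81 ± 0.15, adjusted p = 0.0336), with a median of -0.13. Of its 3 other probe sets 2 went the other way, the larger by 0.21.

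Against uninfected cells, 17 of the 65 genes past the threshold that the naming rule gave did not pass. Beside the 5 rises named above, DDIT3 and CD28, they were SSR2 (-0.54), FKBP14 (-0.40), ELOVL5 (-0.44), GABARAPL2 (-0.61), RAC2 (-0.61), ZFP36L2 (-0.74) and CDC25B (-0.71) among the falls, and SEC23A (0.66), UBE2S (0.57) and PSMD11 (0.70) among the rises. Of the 65, 52 had several probe sets, and 10 of those had a probe set that went the other way. Beside DCP2, ELOVL5, PHF20L1, RGS16 and XIAP, these were TPM1, whose opposite probe set differed by -0.18, TFRC (-0.16), RHOQ (0.09), PSMD11 (-0.09) and IRF4 (0.004).

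Of several stress and immune lists no member was called. The interferon response had a median of 0.07 over 33 genes (RPMI-8226 -0.03, JJN3 0.18), with RIGI at 0.74 and IFI35 at -0.66. The NF-kB list had a median of -0.09 over 23 genes, with TNFAIP3, an inhibitor of NF-kB, at -0.80 (adjusted p = 0.0583). Heat shock proteins had a median of 0.01 over 28 genes, with DNAJB4 at 0.73 and DNAJB1 at 0.70. Antioxidant genes of NRF2 had a median of 0.04 over 31 genes, with ABCC4 and SQSTM1 both at -0.71. Glycolysis and hypoxia genes had a median of -0.01 over 34 genes, with HK1 at 0.74 and SLC2A1 at -0.73.

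Markers of other cell types were read as a check of the cultures. Of 20 T and NK cell markers 0 were called, with a median of -0.11 and the largest differences in GNLY (-0.48) and CD8A (-0.44). Of 13 myeloid markers 0 were called, with a median of 0.11, AIF1 at -0.36 and CD163 at 0.28. Of 10 erythroid and megakaryocyte markers 0 were called, with a median of -0.06, ALAS2 at -0.33 and KLF1 at 0.33. Of 19 stromal and epithelial markers 1 fell, CDH1, the adhesion protein E-cadherin, with a list median of -0.15. CDH1 read -0.61 and -2.33 on the NT and XBP1 shRNA arrays of RPMI-8226 and 0.98 and 0.20 on those of JJN3, a fall of 1.25 ± 0.26 (SE, n = 2; adjusted p = 0.0469). Its difference was -0.73 without the XBP1 shRNA array of RPMI-8226 and -1.77 without that of JJN3. Centred values cannot show whether a marker is absent.

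**Figure D5:**
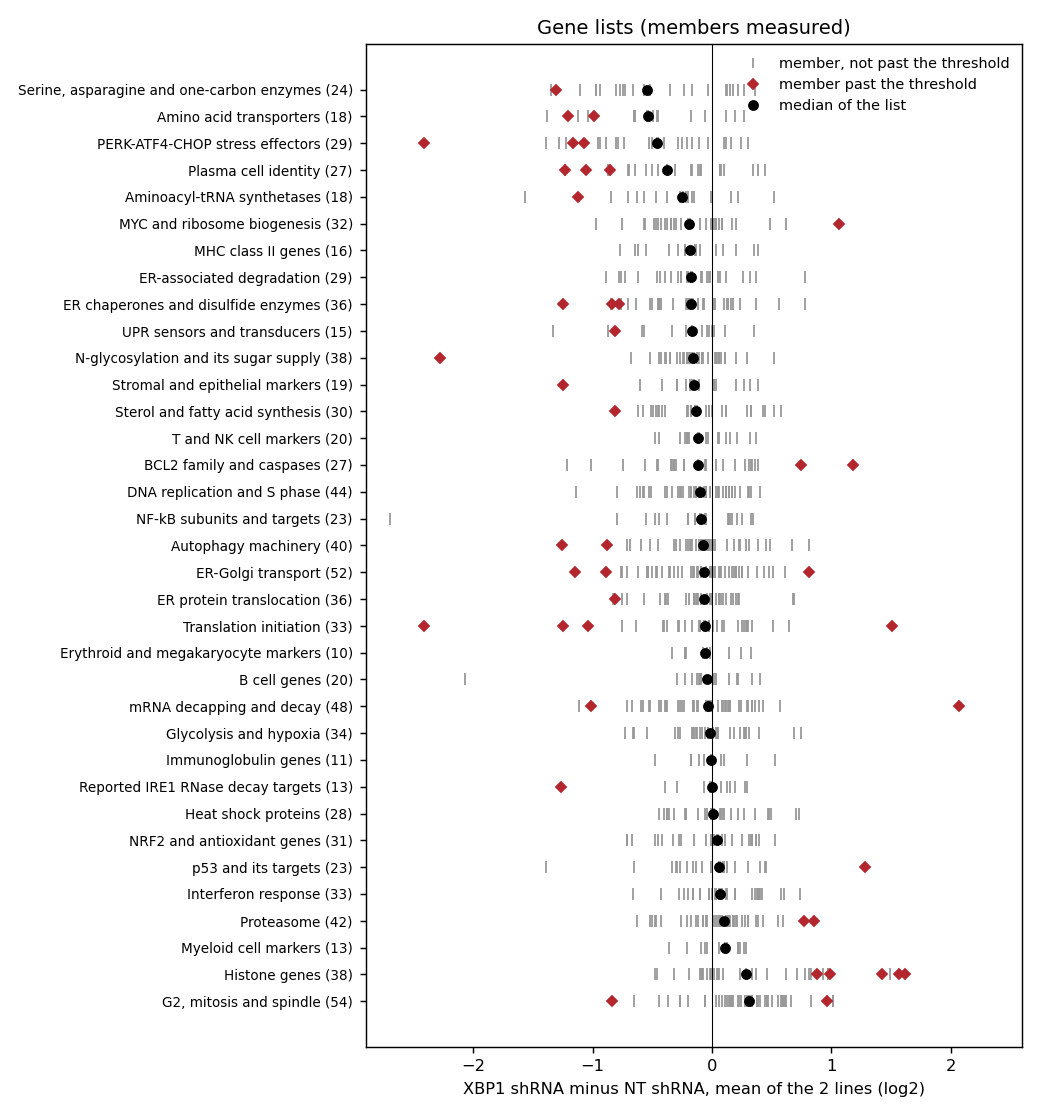
Log2 difference between XBP1 shRNA and NT shRNA, as the mean of the 2 lines (horizontal axis), for every measured member of the gene lists described (rows), with called members as red diamonds, the others as grey ticks and the list median as a black dot. The lists of amino acid transporters and of serine, asparagine and one-carbon enzymes have medians of -0.54, and the immunoglobulin list has a median of -0.01.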

How the data were processed

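RNA was measured on 8 Affymetrix arrays of 54675 probe sets. Per the submitters' processing notes the authors used RMA; its version is not given in the sources used here. The deposited values were taken as log2 values, because RMA returns that scale, and each probe set had a median of 0 over the 8 arrays (largest absolute median 5e-07). Values ran from -5.73 to 5.45 and hold no signal over background, so the number of arrays limits the precision. A single gene symbol was given in the array annotation for 41097 probe sets, several for 1801 and none for 11777; 41043 of the 41097 matched RefSeq genes by Entrez ID, 54 did not, and 0 symbols were updated.

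Each of 19775 genes was represented by its probe set of highest SD over the 8 arrays, since centred means hold no intensity. The probe set of highest mean, used as an alternative, therefore need not be the one of highest signal. A linear model (limma 3.58.1, R 4.3.3, moderated by eBayes, two-sided) was fitted to all 8 arrays, with the 4 treatments, cell line as blocking factor, 3 residual degrees of freedom and Benjamini-Hochberg adjustment over all genes. The script was tested on simulated data. Nothing in the labels says how many separate cultures stand behind an array, so p-values measure only the spread between these samples. The pairing comes from the cell line named in the labels: deviations of arrays of the same line from their treatment means correlated at 0.918 to 0.947, and 0 array pairs were identical. The quantile, cyclic loess and array median alternatives moved the median difference of all genes by under 0.1.

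Named genes were XBP1 and ERN1, the 12 largest changes in each direction among called genes with a further probe set called the same way, and, on each list, up to 4 called members per direction or the 2 largest differences where none was called. The result of 1 of the 36 lists is not reported here. The members and lists were chosen with earlier results of these data known. The alternatives changed the normalisation, the probe set, the filter, the arrays, the control and the test.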

Additional observations from a re-analysis of the deposited data

Results flagged for a closer look

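Of the genes measured, 3 differed at least 2-fold in opposite directions in the 2 lines, and in none of them was the difference between the lines tested. DPF3, a chromatin reader of the BAF complex, differed between the XBP1 shRNA and NT shRNA arrays by 1.09 in RPMI-8226 and -1.15 in JJN3 (log2). IFIT3, an interferon-induced protein, differed by -1.57 in RPMI-8226 and 1.24 in JJN3. In RPMI-8226 its NT shRNA array read 1.16 and its uninfected array -0.31. TRIM2, a ubiquitin ligase, differed by -1.65 in RPMI-8226 and 1.01 in JJN3.

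Among the 36 gene lists, the medians of 3 had opposite signs in the lines and lay at least 0.3 apart, which was not tested either. For the NF-kB list the medians were -0.25 (RPMI-8226) and 0.072 (JJN3). For DNA replication and S phase they were 0.19 (RPMI-8226) and -0.33 (JJN3). For the BCL2 family and caspases they were -0.20 (RPMI-8226) and 0.18 (JJN3).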

How the results depend on the processing

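The number of genes past the threshold (436) depended on the processing and on single arrays. Without the cell line as a replicate block it was 0, and without eBayes moderation 0 (2288 at an unadjusted p under 0.05). It was 190 with only the 4 arrays compared (172 shared with the 436) and 293 after quantile normalisation. It was 275 with the mean of a gene's probe sets and 221 with the probe set of highest mean. Without probe sets whose names end in _x_at or _s_at it was 288. The number was 686 against uninfected cells, 1020 against the mean of both controls and 659 over every probe set. Leaving out each array in turn gave 0 to 350. Cyclic loess, array medians, a robust fit and a filter on the lower SD gave 395, 399, 498 and 315. The 154 genes that differed 2-fold in both lines became 55 with the mean of probe sets, 85 with the highest mean and 249 over every probe set. The cause of these shifts was not tested. ERN1 passed with only the 4 arrays (-1.33, adjusted p = 0.0303), against uninfected cells (-1.88, adjusted p = 0.0226), against both controls (-1.60, adjusted p = 0.0175) and without the JJN3 XBP1 shRNA array (-1.82, adjusted p = 0.0399). Leaving out each array gave -1.82 to -0.85 for ERN1 and -1.32 to -0.41 for XBP1. With the highest-mean probe set XBP1 was -0.08, with its probe sets averaged -0.48, and it stayed short of the threshold in all settings run.

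The direction of some named genes turned with the probe set. RGS16 (0.20), SLC2A1 (0.19), CD163 (-0.0857) and ALAS2 (0.00727) turned with the highest mean and without probe sets ending in _x_at or _s_at. PHF20L1 (-0.24), DCP2 (-0.63) and XIAP (-0.16) turned with the highest mean. MS4A1 (-0.0086), IGLC1 (-0.32), IGKC (0.30) and RIGI (-0.31) turned without probe sets ending in _x_at or _s_at. The direction turned against uninfected cells for CD163 (-0.11) and KLF1 (-0.0123). It also turned without the JJN3 XBP1 shRNA array for HLA-DQB1 (range over left-out arrays -1.70 to 0.41) and without the JJN3 NT shRNA array for CD163 (-0.0310 to 0.60). Of the named genes over all settings, 1316 values kept direction and side of the threshold, 573 no longer passed, 24 newly passed and 19 turned; 149 list medians moved by more than the spread between lines and 607 did not. The block changed the call of every gene past the threshold.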
